A study of Mus musculus with 8 samples.

Results

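Lipid-associated macrophages and macrophages recently derived from blood monocytes are recognised in bulk liver RNA by a small set of genes, of which 10 were followed here: Trem2, Tyrobp, Gpnmb, Lgals3, Cd68, Cd63, Cd9, Lpl, Fabp5 and Ly6c2. They were chosen by name from what such macrophages are known to express, but with earlier results of these data already known. Their rows were taken from the deposited table of normalized counts by gene symbol. All 10 were found among the 24451 genes of the table, and all 10 were among the 15352 genes that were tested, those averaging 5 or more normalized counts over the 8 livers.

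The study asked what the ubiquitin ligase BRAP does in the liver. RNA from the left liver lobe was sequenced in 4 Brap LKO mice and in 4 Brap F/F mice. All were C57BL/6 males aged 18 wk, on a chow diet and fasted for 6 h, and all carried Brap alleles with flox sites placed around exons 2 and 3 by Crispr/Cas9 (Brap fl/fl). The Brap LKO mice also carried the Albumin-Cre transgene (Alb Cre+), whose promoter is active in hepatocytes, and the Brap F/F mice were Cre-negative (Alb Cre-) littermates. The deletion was therefore directed at hepatocytes and not at macrophages, while the RNA came from every cell type of the lobe. Gene counts do not show the deletion and no exon counts were examined: Brap had between 3641 and 4203 normalized counts in Brap LKO replicates 1 to 4 and between 3994 and 4410 in the Brap F/F livers, so the groups are those of the labels. The gene counts of a liver summed to 26280884 at the lowest and 33313914 at the highest. A normalized count is the number of reads on a gene divided by a size factor for the liver, and 1 read was worth between 0.850 and 1.14 normalized counts. The defining hepatocyte marker Alb was the most abundant of the marker genes examined, and the Kupffer cell marker Clec4f had between 1601 and 2597 normalized counts in all 8 livers.

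The liver holds resident macrophages, the Kupffer cells, which line the sinusoids and clear particles and ageing red blood cells, and it can recruit monocytes from blood that then mature into macrophages. Macrophages that have taken up lipid, in fatty liver, adipose tissue, arterial plaques and the brain, share a gene program in which the surface receptor TREM2 senses lipids and lipoproteins and signals through its partner TYROBP. The program includes lysosomal and lipid-handling genes, while Ly6c2 marks the monocytes of blood that enter inflamed tissue.

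The promoters of 3 of the genes are given here because these had 3 of the 4 highest fold changes of the set, and because they differ in which short motifs of macrophage transcription factors they hold. RefSeq promoter sequences (GRCm38.p6, the build also called mm10), each from 250 bases before to 50 bases after the annotated start site, were matched for 7 of the 10 genes, and Lpl, Fabp5 and Tyrobp were not matched. The windows are chr6:49036268-49036567 on the plus strand for Gpnmb, chr17:48346151-48346450 on the plus strand for Trem2 and chr10:128909095-128909394 on the plus strand for Cd63. The Cd63 window lies within the gene's annotated span (128900989 to 128912822), past its first base, so it surrounds an internal start site. Capitals mark motif matches on either strand, and no match overlapped another in these windows.
Gpnmb: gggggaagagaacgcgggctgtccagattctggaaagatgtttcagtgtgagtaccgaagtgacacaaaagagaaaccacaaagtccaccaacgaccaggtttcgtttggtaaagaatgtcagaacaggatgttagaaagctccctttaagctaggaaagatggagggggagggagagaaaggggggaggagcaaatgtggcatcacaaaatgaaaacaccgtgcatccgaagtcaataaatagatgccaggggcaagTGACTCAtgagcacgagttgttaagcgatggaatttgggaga
Trem2: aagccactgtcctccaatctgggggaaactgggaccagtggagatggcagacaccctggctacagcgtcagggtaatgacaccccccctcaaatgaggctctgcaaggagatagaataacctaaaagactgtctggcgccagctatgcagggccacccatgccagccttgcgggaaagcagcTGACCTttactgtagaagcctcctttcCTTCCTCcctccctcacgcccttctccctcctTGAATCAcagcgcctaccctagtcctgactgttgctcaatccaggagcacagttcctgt
Cd63: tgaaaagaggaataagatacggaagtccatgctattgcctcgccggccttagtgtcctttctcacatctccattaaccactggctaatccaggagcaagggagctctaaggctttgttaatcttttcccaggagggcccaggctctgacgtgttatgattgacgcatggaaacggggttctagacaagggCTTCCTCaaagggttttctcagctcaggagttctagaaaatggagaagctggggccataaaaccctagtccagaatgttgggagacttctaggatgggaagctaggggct
The motifs searched were GAGGAAG for PU.1, a factor needed for macrophage development, TGANTCA for AP-1, TCACGTG for the E-box bound by lysosomal gene regulators, TTGCGCAA for C/EBP, GGGCGG for the Sp1 GC box and AGGTCA for the core that nuclear receptors bind. With the start site counted as base 1, the Gpnmb window held AP-1 at base 9. The Trem2 window held the nuclear receptor core at base -68, PU.1 at base -41 and AP-1 at base -9, and the Cd63 window held PU.1 at base -60. Of the other windows, that of Cd68 held AP-1 at 2 places and the GC box at 1, those of Cd9 and Lgals3 held the GC box at 2 places each, and those of Ly6c2 held PU.1 at 2 places. The Lgals3 window (chr14:47373610-47373909) also lies within its gene, past the first annotated base. Of all 32851 promoter windows, 13.6% held the PU.1 letters, 7.81% AP-1, 3.77% the E-box, 0.183% C/EBP, 35.7% the GC box and 16.3% the nuclear receptor core. A match describes the letters of the window and shows no binding.

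Among the 10 genes, Gpnmb was the one whose RNA rose past the threshold in the Brap LKO livers, by 4.61-fold (95% confidence interval 2.47 to 8.60). Trem2 (3.95-fold), Lpl (2.10-fold) and Cd63 (2.01-fold) had the next highest fold changes without passing the adjusted threshold, and Cd68 stood at 1.42-fold. Tyrobp, Cd9 and Lgals3 lay between 1.23-fold and 1.32-fold, Fabp5 at 1.41-fold and the monocyte gene Ly6c2 at 1.54-fold, with intervals that included no change. These folds are on the log2(normalized count + 1) scale and come from limma. For genes with few reads they differ from the ratio of the group means, which was 3.29 for Trem2 and 4.81 for Gpnmb. In bulk RNA, more cells of a type and more RNA of a gene per cell cannot be told apart.

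In numbers, 1 of the 10 genes was higher at an adjusted p-value under 0.05 and 0 were lower, where 0.664% of all tested genes were called higher and 0.104% lower. At an unadjusted p-value under 0.05, 5 of the 10 were higher (Gpnmb, Trem2, Lpl, Cd68 and Cd63) and 0 lower, beside 9.23% of all tested genes that were higher. All 10 log2 fold changes were above 0, beside 48.0% of all tested genes, and their median was 0.56 beside -0.01. Of the 10, 3 had every Brap LKO liver above every Brap F/F liver (Gpnmb, Lpl and Cd63), beside 5.48% of all tested genes, and 0 had the reverse, beside 4.39%. DESeq2 on the recovered reads called 3 of the 10 higher, Gpnmb (adjusted p = 0.000349), Lpl (adjusted p = 0.00175) and Cd63 (adjusted p = 0.0175), where it called 3.02% of all genes higher, and it called none of the 10 lower.

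**Figure D1:**
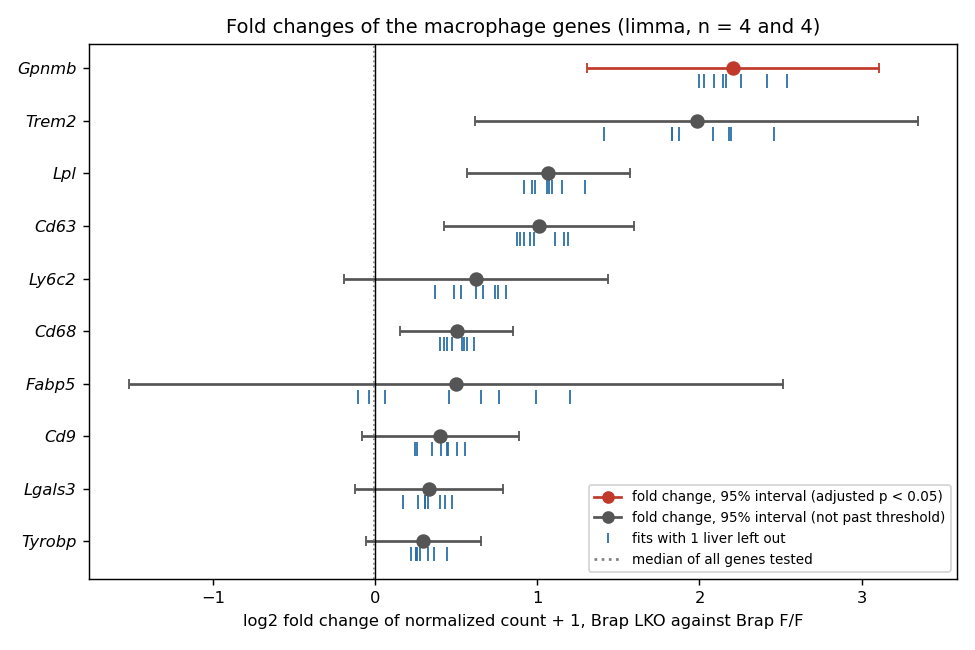
Log2 fold change of normalized count + 1 (Brap LKO against Brap F/F, x axis) for each of the 10 genes, with the 95% confidence interval from limma (n = 4 and 4); blue ticks are the fits with 1 liver left out and the dotted line is the median of all genes tested. Gpnmb, in red, is the gene past the adjusted threshold at 2.20, the values of all 10 genes lie above 0, and the ticks of Fabp5 fall on both sides of 0.

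Gpnmb encodes a transmembrane glycoprotein of macrophages and pigment cells that is induced when lysosomes are loaded. It lies on chromosome 6 of mm10 (49036546 to 49070929, plus strand). Its normalized counts were 31.0, 17.8, 32.4 and 36.4 in Brap LKO replicates 1 to 4 and 3.42, 6.10, 3.15 and 11.8 in Brap F/F replicates 1 to 4. Each Brap LKO liver exceeded each Brap F/F liver, and the nearest pair was Brap LKO replicate 2 and Brap F/F replicate 4. The counts behind these values were 34, 21, 32 and 35 reads against 3, 6, 3 and 12 reads, so each Brap F/F value rests on few reads. The log2 fold change was 2.20 (SE 0.401, 95% confidence interval 1.30 to 3.11, limma, adjusted p = 0.0480; exact permutation p = 0.0286, two-sided and the lowest value 4 livers against 4 can give). The call sits at the edge of the threshold. Without Brap F/F replicate 4 the adjusted p was 0.0165, and without any 1 of the other 7 livers Gpnmb was not called, with adjusted p from 0.0744 to 0.165 and log2 fold changes of up to 2.42.

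**Figure D2:**
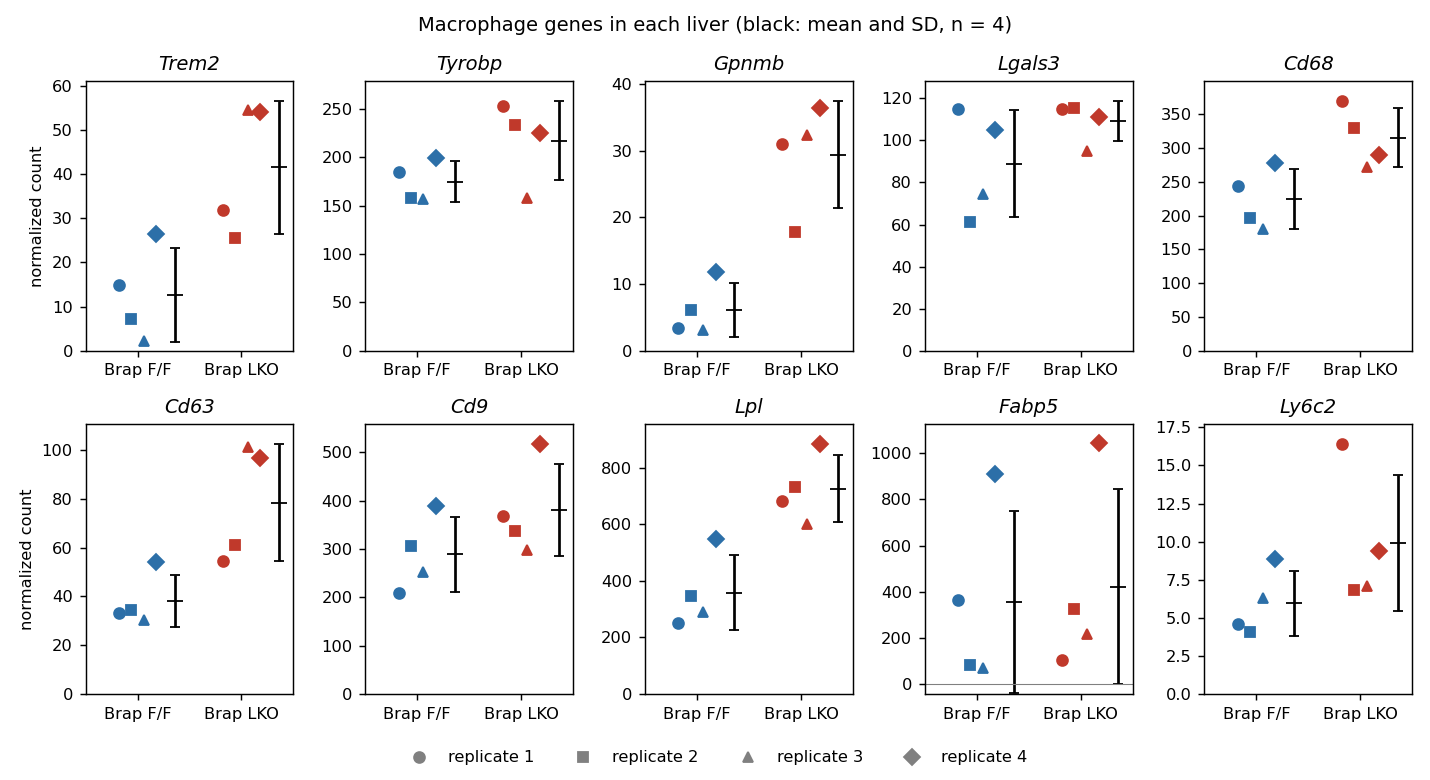
Normalized count (y axis) of each of the 10 genes in the 4 Brap F/F (blue) and 4 Brap LKO (red) livers, with the replicate given by the symbol and the mean and SD in black. The groups are separate for Gpnmb, Lpl and Cd63, and the diamond of Brap F/F replicate 4 is the highest Brap F/F liver for 9 of the 10 genes.

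TREM2 is the lipid-sensing receptor that gives these macrophages their name in many tissues. Trem2 lies on chromosome 17 (48346401 to 48354147, plus strand). Its normalized counts were 31.9, 25.5, 54.6 and 54.1 in the Brap LKO livers and 14.8, 7.12, 2.10 and 26.5 in the Brap F/F livers. Of the 4 Brap LKO livers, 3 lay above the highest Brap F/F liver, which was replicate 4, and Brap LKO replicate 2 lay just under it. The Brap F/F livers spread from 2 to 27 reads, which is the widest relative range among the 10 genes in that group apart from Fabp5. The group means were 41.5 ± 15.1 (SD, n = 4) and 12.6 ± 10.6 (SD, n = 4), and the log2 fold change of 1.98 (95% confidence interval 0.62 to 3.35) did not pass the threshold (limma, adjusted p = 0.174; exact permutation p = 0.0571). With 1 liver left out it went as low as 1.41 (no Brap F/F replicate 3) and as high as 2.46 (no Brap F/F replicate 4).

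TYROBP, the adaptor that TREM2 and several other myeloid receptors signal through, was far more abundant. Per kilobase of exon, Tyrobp had 293 normalized counts over the 8 livers, the highest level of the 10 genes, and Trem2 had 5.47. Tyrobp (chromosome 7, 30413760 to 30417585, plus strand) had 252, 233, 158 and 225 normalized counts in Brap LKO replicates 1 to 4 and 185, 158, 157 and 199 in Brap F/F replicates 1 to 4. Of the 4 Brap LKO livers, 3 exceeded the Brap F/F range, and replicate 3 lay among the lowest of the 8. The difference of 0.30 on the log2 scale (95% confidence interval -0.06 to 0.65) did not pass the threshold (limma, adjusted p = 0.391).

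Of 27 further genes of TREM2 and TYROBP signalling, 22 were tested and 0 passed the threshold in either direction. Of the 22 log2 fold changes, 20 were above 0, beside 48.0% of all tested genes (median 0.34, and 0.22 without Brap LKO replicate 1). DESeq2 called 2 of them higher, beside 3.02% of all genes. In each of 6 other alternatives 1 was called, among them the same total per liver and leaving out Brap F/F replicate 4. At an unadjusted p-value under 0.05, 7 were higher and 0 lower, beside 9.23% of all tested genes higher and 1012 of 15352 lower. For 2 of the 22 every Brap LKO liver was above every Brap F/F liver, beside 5.48% of all tested genes. The kinase Syk, which binds the phosphorylated adaptor, had 198 ± 43.4 (SD, n = 4) against 153 ± 18.6 (SD, n = 4) normalized counts (log2 fold change 0.35, limma, adjusted p = 0.363). Plcg2, the phospholipase downstream of it, stood at a log2 fold change of 0.56 (limma, adjusted p = 0.217), and the inhibitory phosphatase Inpp5d at 0.47 (adjusted p = 0.213). The adaptor Blnk, which B cells also use, differed most, with 126 ± 32.6 (SD, n = 4) against 28.8 ± 19.1 (SD, n = 4) normalized counts and no overlap between the groups (log2 fold change 2.32, limma, adjusted p = 0.0591). The proteases Adam10 and Adam17, which cut TREM2 from the cell surface, had log2 fold changes of 0.17 and -0.03. The activating receptor genes Trem1 and Trem3 had at most 4.05 normalized counts in any liver.

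LGALS3 is a sugar-binding protein that macrophages secrete in quantity and that also gathers at damaged lysosomes. Lgals3 (chromosome 14, 47367751 to 47386160, plus strand) had 115, 116, 95.1 and 111 normalized counts in Brap LKO replicates 1 to 4 and 115, 61.0, 74.6 and 105 in Brap F/F replicates 1 to 4. Brap F/F replicates 1 and 4 lay within the range of the Brap LKO livers and replicates 2 and 3 below it. On the log2 scale the difference was 0.33 (95% confidence interval -0.12 to 0.79, limma, adjusted p = 0.450). None (0) of 6 other tested galectins and galectin-related genes passed the threshold, at a median of 0.00 to 2 decimals, and 1 of them (Lgals4) was lower at an unadjusted p-value under 0.05.

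The lysosomal and tetraspanin genes came next. CD68 is a heavily glycosylated protein of macrophage lysosomes and a standard stain for macrophages in tissue. Cd68 (chromosome 11, 69664213 to 69666153, minus strand) had 370, 330, 272 and 290 normalized counts in Brap LKO replicates 1 to 4 and 244, 196, 180 and 278 in Brap F/F replicates 1 to 4. The groups overlapped at 1 liver, Brap F/F replicate 4, which lay just above Brap LKO replicate 3. Its log2 fold change of 0.50 (95% confidence interval 0.15 to 0.85) did not pass the adjusted threshold (limma, adjusted p = 0.179; exact permutation p = 0.0571).

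CD63 and CD9 are tetraspanins, membrane proteins of late endosomes and of the cell surface. Cd63 (chromosome 10, 128900989 to 128912822, plus strand) had 54.7, 61.2, 101 and 96.7 normalized counts in Brap LKO replicates 1 to 4 and 33.1, 34.6, 30.5 and 54.0 in Brap F/F replicates 1 to 4. The highest Brap F/F liver was below the lowest Brap LKO liver, but Brap LKO replicate 1 and Brap F/F replicate 4 were nearly level. Cd63 thus had a log2 fold change of 1.01 (SE 0.261, 95% confidence interval 0.42 to 1.60, limma, adjusted p = 0.111; exact permutation p = 0.0286). Of the windows of 50 bases in its transcripts, the length of the reads, 11.1% also occur in another gene, 9.70% in the pseudogene Cd63-ps, so part of its reads may be assigned either way.

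Cd9 (chromosome 6, 125460266 to 125494791, minus strand) had 369, 336, 298 and 517 normalized counts in Brap LKO replicates 1 to 4 and 209, 307, 252 and 389 in Brap F/F replicates 1 to 4. Brap LKO replicate 4 was the one liver above the whole other group. The difference on the log2 scale was 0.40 (95% confidence interval -0.08 to 0.88, limma, adjusted p = 0.396). Cd9 is the one gene of the 10 whose exons overlap another gene, Gm26728 on the opposite strand, over 218 bases or 10.7% of its exon bases, and the strand setting of the counting is not given in the sources used here.

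The wider families of these genes were examined as well. Of 39 tested genes of lysosome and phagocytosis, 0 passed the threshold, with 13 log2 fold changes were above 0 and 26 below, and the median was -0.02. The abundant lysosomal membrane genes Lamp1 and Lamp2 had log2 fold changes of -0.08 and -0.03, and the saposin precursor Psap -0.02. At an unadjusted p-value under 0.05, 4 of these 39 genes were higher and 3 lower. Of all tested genes, 9.23% were higher and 1012 of 15352 lower, so these counts are near the background. The groups did not overlap for 2 of the 39 each way, beside 5.48% higher and 4.39% lower of all tested genes. Among the 4 higher ones was Axl, a receptor for dying cells (log2 fold change 0.64, limma, adjusted p = 0.104). Of 22 other tetraspanins, 0 passed the threshold, with a median of 0.14, and the most abundant, Cd81, had a log2 fold change of -0.08. With every liver scaled to the same total, the median of all genes moved to 0.15 and that of the lysosome list to 0.14.

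LPL hydrolyses the triglycerides of lipoproteins, and is made by lipid-loaded macrophages while adult hepatocytes make little. Lpl (chromosome 8, 68880491 to 68907448, plus strand) had 683, 732, 602 and 883 normalized counts in Brap LKO replicates 1 to 4 and 251, 345, 288 and 548 in Brap F/F replicates 1 to 4. The groups did not overlap, with Brap F/F replicate 4 nearest to the other group. The log2 fold change was 1.07 (SE 0.225, 95% confidence interval 0.56 to 1.57), which missed the threshold (limma, adjusted p = 0.0709; exact permutation p = 0.0286). Without Brap F/F replicate 4 it was 1.30 and passed (adjusted p = 0.0117), and it passed too with arrayWeights (adjusted p = 0.0237), the animal series as a covariate (adjusted p = 0.0388) and the same total per liver (adjusted p = 0.0282).

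None (0) of the regulators of LPL passed the threshold. Of 20 tested genes for lipases, their inhibitors, cofactors and chaperones, 5 log2 fold changes were above 0 and 15 below (median -0.15). Angptl4, an inhibitor of LPL made by hepatocytes, had 5665 ± 734 (SD, n = 4) against 7161 ± 655 (SD, n = 4) normalized counts (log2 fold change -0.34, limma, adjusted p = 0.181). It was the 1 gene of the 20 with every Brap LKO liver below every Brap F/F liver, beside 4.39% of all tested genes. Gpihbp1, which anchors LPL on endothelium, had a log2 fold change of 0.02. With every liver scaled to the same total, the list's median was 0.01, beside 0.15 for all genes.

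FABP5 carries fatty acids inside macrophages, epidermal cells and other cells. Fabp5 (chromosome 3, 10012548 to 10016607, plus strand) had 106, 324, 215 and 1042 normalized counts in Brap LKO replicates 1 to 4 and 364, 84.4, 68.3 and 912 in Brap F/F replicates 1 to 4. Replicate 4 was the highest liver of both groups, and the ranges of the groups covered each other. The log2 fold change of 0.50 had a 95% confidence interval from -1.52 to 2.52 (limma, adjusted p = 0.813), which spans 0.348-fold to 5.72-fold. Leaving out Brap LKO replicate 4 turned it to -0.11, and leaving out Brap F/F replicate 3 to -0.04. Of 11 other fatty acid binding and transport genes, 0 passed the threshold, and 9 of 11 log2 fold changes were below 0 (median -0.17), among them the abundant liver form Fabp1 (-0.23, limma, adjusted p = 0.548). Of the windows of Fabp5 transcripts, 5.48% also occur in other genes.

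Ly6c2 encodes a surface protein of classical monocytes and lies on chromosome 15 (75108158 to 75111970, minus strand). It was close to the limit of detection, with 18, 8, 7 and 9 reads in the Brap LKO livers and 4, 4, 6 and 9 reads in the Brap F/F livers. The normalized counts were 16.4, 6.80, 7.08 and 9.36 against 4.56, 4.07, 6.31 and 8.83. Brap LKO replicates 1 and 4 lay above every Brap F/F liver, replicate 4 only just, and Brap LKO replicates 2 and 3 lay within the Brap F/F range. The resulting log2 fold change was 0.62 (95% confidence interval -0.19 to 1.44, limma, adjusted p = 0.433). Ly6c2 shares 13.9% of its windows of 50 bases with its neighbour Ly6c1, so reads of the pair cannot be fully separated, but Ly6c1 had at most 7.08 normalized counts in any liver. All 5 other tested Ly6 family genes had log2 fold changes above 0 (median 1.31), beside 48.0% of all tested genes. At an unadjusted p-value under 0.05, 3 were higher (Ly6a, Ly6e and Lynx1), beside 9.23% of all tested genes. For 3 of the 5 every Brap LKO liver was above every Brap F/F liver, beside 5.48%. Of the 5, Ly6e passed the threshold, with 13594 ± 1681 (SD, n = 4) against 5764 ± 2134 (SD, n = 4) normalized counts (log2 fold change 1.31, limma, adjusted p = 0.0480). Ly6e is made by many cell types, and its adjusted p was between 0.0642 and 0.149 without any 1 liver other than Brap F/F replicate 4. It was 0.107 with the animal series as a covariate and 0.0554 with edgeR, and Ly6e lost its call in 13 of 22 alternatives in all.

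Of 22 other tested genes of recruited monocytes and macrophages, 1 passed the threshold, 21 log2 fold changes were above 0, and the median was 0.56. Of all tested genes, 0.664% were called higher and 48.0% were above 0. At an unadjusted p-value under 0.05, 7 of the 22 were higher and 0 lower, beside 9.23% of all tested genes higher and 1012 of 15352 lower. For 5 of the 22 every Brap LKO liver was above every Brap F/F liver, beside 5.48% of all tested genes. The list's summed normalized counts ran from 9673 to 10777 for Brap LKO and from 6592 to 11376 for Brap F/F, with Chil3, Ccl2, Ccr1 and Clec4e at 0 in at least 1 liver. Cx3cr1, a chemokine receptor of monocytes and of macrophages that settle in tissue, had 100.2, 51.8, 100.2 and 180 normalized counts in Brap LKO replicates 1 to 4 and 11.4, 12.2, 12.6 and 20.6 in Brap F/F replicates 1 to 4. No liver overlapped, and the log2 fold change was 2.75 (SE 0.354, limma, adjusted p = 0.0155). It left the threshold without Brap LKO replicate 1 (adjusted p = 0.0666), Brap LKO replicate 3 (adjusted p = 0.0548) or Brap F/F replicate 2 (adjusted p = 0.0524). Ccr2, which draws monocytes out of the bone marrow, had 53.7 ± 10.9 (SD, n = 4) against 25.3 ± 3.67 (SD, n = 4) normalized counts, also with no overlap (log2 fold change 1.05, limma, adjusted p = 0.057).

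Of 29 other tested genes of lipid-associated macrophages, 1 passed the threshold, 17 log2 fold changes were above 0 and the median was 0.08. Of all tested genes, 0.664% were called higher and 48.0% were above 0. DESeq2 called 6 of the 29, beside 3.02% of all genes called higher. None (0) was called without any 1 liver other than Brap F/F replicate 4. With every liver scaled to the same total, 5 were called and 25 of 29 were above 0 (median 0.24). Under that scaling 78.4% of all tested genes were above 0 (median 0.15) and 459 of 15368 were called higher. Itgax, the integrin subunit also called CD11c, had 84.7, 46.7, 39.5 and 69.7 normalized counts in Brap LKO replicates 1 to 4 and 21.7, 21.4, 15.8 and 19.6 in Brap F/F replicates 1 to 4. The groups were apart, with a log2 fold change of 1.52 (SE 0.259, limma, adjusted p = 0.040), and without any 1 liver other than Brap F/F replicate 4 the adjusted p was between 0.0539 and 0.120. Nor was Itgax called with the animal series as a covariate (adjusted p = 0.0755). Ms4a7, which recruited macrophages express and Kupffer cells lack, stood at a log2 fold change of 2.17 (limma, adjusted p = 0.0618) and the elastase Mmp12 at 2.57 (adjusted p = 0.136), both without overlap. In this list 6 of 29 genes had every Brap LKO liver above every Brap F/F liver, beside 5.48% of all tested genes. Mmp12 and Olr1 were at 0 in at least 1 liver, so the fold change of Mmp12 rests on values near the floor. Apoe, Ctsb, Ctsl and Plin2, which hepatocytes express at high levels, had log2 fold changes from -0.26 to -0.06. Of 17 tested growth factors and chemokines for monocytes and macrophages, Cxcl16, a chemokine that also binds oxidised lipoprotein, rose by 0.73 on the log2 scale, with 267 ± 36.3 (SD, n = 4) against 160 ± 6.39 (SD, n = 4) normalized counts (limma, adjusted p = 0.0308). Without any 1 of 6 livers (Brap LKO replicates 1, 2 and 4 and Brap F/F replicates 1, 2 and 3), Cxcl16 was not called (adjusted p from 0.0670 to 0.116), nor was it with the animal series as a covariate (adjusted p = 0.0636). Csf1, the growth factor of macrophages, and Cx3cl1, the ligand of Cx3cr1, had log2 fold changes of 0.64 (adjusted p = 0.142) and 1.14 (adjusted p = 0.0776), with no overlap between groups. Of the 17 genes, 4 had every Brap LKO liver above every Brap F/F liver, beside 5.48% of all tested genes.

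**Figure D3:**
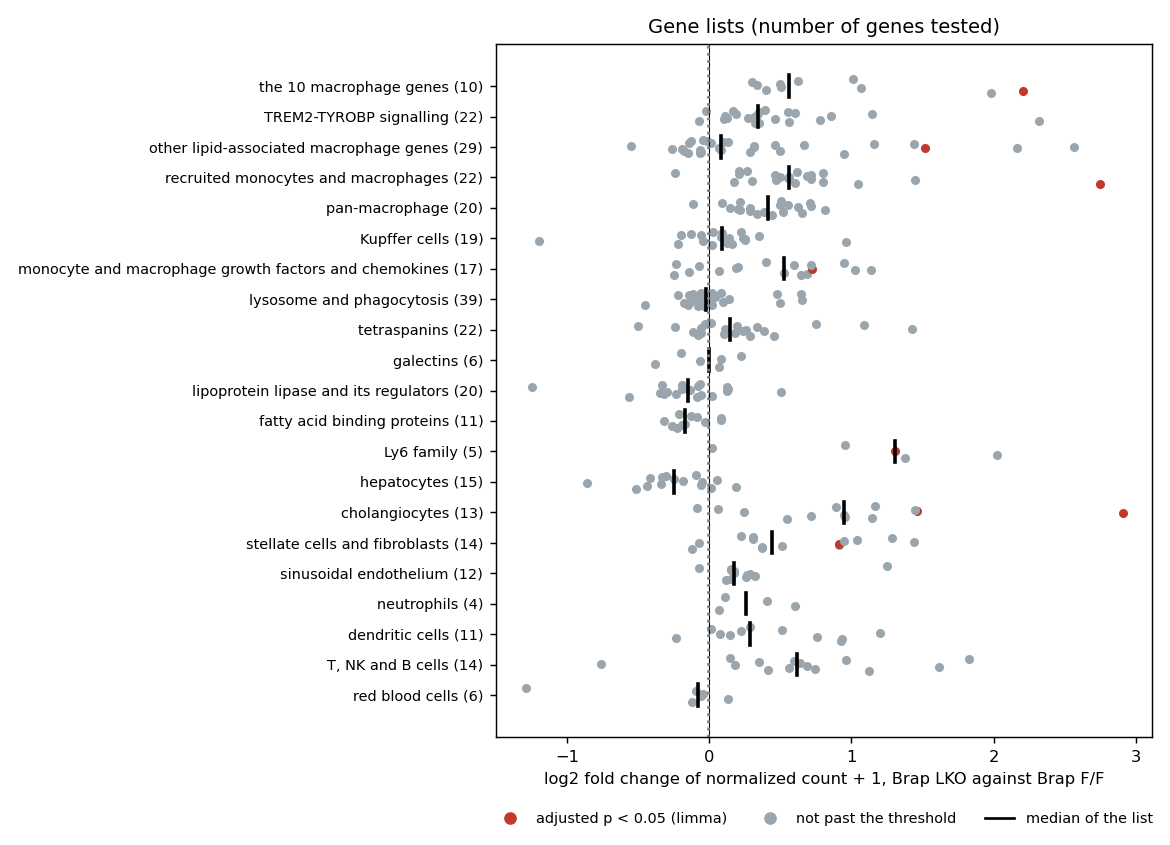
Log2 fold change (x axis) of every tested gene of each list, with the number tested in brackets, a black bar at the list's median, and genes past the adjusted threshold in red. The lists of TREM2 and TYROBP signalling, pan-macrophage and recruited monocyte genes have medians between 0.34 and 0.56 with at most 1 gene past the threshold each. Growth factors and chemokines (0.52) and stellate cells and fibroblasts (0.44) lie in that range. The Ly6 family (1.31), cholangiocytes (0.95) and T, NK and B cells (0.61) lie above it. Other lipid-associated macrophage genes (0.08), the Kupffer cell list (0.09) and the lysosome list (-0.02) are centred near the median of all genes.

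The macrophages of the liver as a whole were followed with general macrophage genes and with Kupffer cell markers. Of 20 pan-macrophage genes, 0 passed the threshold and 19 log2 fold changes were above 0, beside 48.0% of all tested genes. The median was 0.42 (0.28 without Brap LKO replicate 1), with Adgre1 (F4/80) at 0.44 (limma, adjusted p = 0.327) and Csf1r at 0.34 (adjusted p = 0.367). DESeq2 called 6 of the 20 higher, beside 3.02% of all genes. With every liver scaled to the same total 3 of the 20 were called, where 459 of 15368 tested genes were called higher. Of 19 Kupffer cell genes, 0 passed the threshold either way, though 1 was called lower with DESeq2 and with 5 other alternatives, among them leaving out Brap LKO replicate 1. Of the 19 log2 fold changes, 13 were above 0 and 6 below. Their median was 0.09, and 0.02 to 0.20 with 1 liver left out. Clec4f and Timd4, which define Kupffer cells, had log2 fold changes of 0.02 and -0.22. At an unadjusted p-value under 0.05, 1 gene of this list was higher (Slc40a1) and 2 were lower (Cd163 and Nr1h3). Of all tested genes, 9.23% were higher and 1012 of 15352 lower at that cutoff. Both Cd163 and Nr1h3 had every Brap LKO liver below every Brap F/F liver, beside 4.39% of all tested genes. Cd163, a scavenger receptor for haemoglobin, had 413 ± 143 (SD, n = 4) against 919 ± 152 (SD, n = 4) normalized counts (log2 fold change -1.20, limma, adjusted p = 0.0532). The summed normalized counts of the pan-macrophage genes were 15130 to 19832 in the Brap LKO livers and 12866 to 16284 in the Brap F/F livers, and those of the Kupffer cell genes 16196 to 21959 and 16759 to 19824. No gene of these 2 lists was at 0 in any liver.

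To see how the 10 genes stood against the general macrophage genes, log2(normalized count + 1) of each was set against a mean from the same liver. The mean was of the same value over the 20 pan-macrophage genes, a level of RNA that does not count macrophages. That mean itself differed by 0.40 between the groups, 8.63 ± 0.275 (SD, n = 4) for Brap LKO against 8.23 ± 0.201 (SD, n = 4) for Brap F/F (exact permutation p = 0.0571). Relative to it, Gpnmb stayed higher in the Brap LKO livers by 1.80, with no overlap between groups (exact permutation test, p = 0.0286). The differences were 1.58 for Trem2 (exact permutation test, p = 0.0857), 0.66 for Lpl (p = 0.0571) and 0.61 for Cd63 (p = 0.257). The other 6 genes lay between -0.11 (Tyrobp) and 0.22 (Ly6c2), with exact permutation p from 0.171 to 1.0. These are 10 tests without adjustment, and 0.0286 is the smallest p they can give. Set against the 19 Kupffer cell genes instead, Gpnmb (2.15), Lpl (1.01) and Cd68 (0.44) were apart between the groups (exact permutation test, p = 0.0286 each), and Trem2 stood at 1.93 (p = 0.0571).

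**Figure D4:**
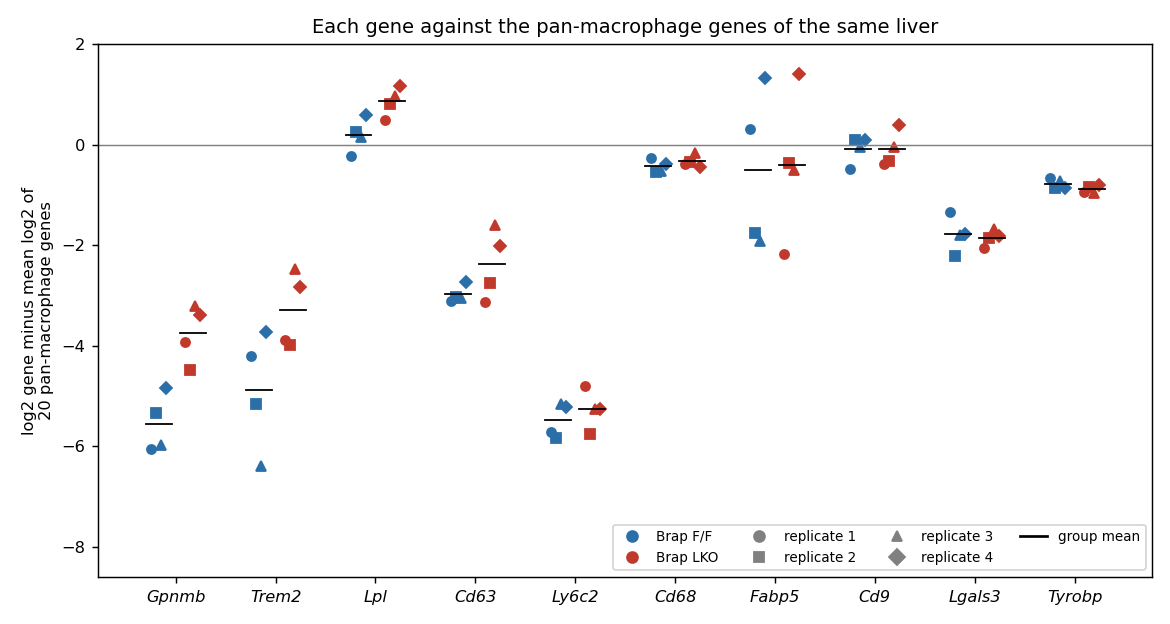
Log2 value of each gene minus the mean log2 value of 20 pan-macrophage genes in the same liver (y axis), for Brap F/F (blue) and Brap LKO (red) livers, with replicates by symbol and group means as bars. The groups are separate for Gpnmb, whose means differ by 1.80, and the means of Cd9, Lgals3, Tyrobp and Cd68 nearly coincide.

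Per kilobase of exon, the mean normalized counts of the 10 genes over the 8 livers ran from Tyrobp (293), Cd68 (215), Cd9 (164) and Fabp5 (109) through Lgals3 (53.3) and Lpl (51.7) to Cd63 (15.8), Trem2 (5.47), Ly6c2 (2.89) and Gpnmb (2.73). The length used is that of all annotated exons of a gene joined, not of the transcripts present in these livers. The order between genes therefore depends on the annotation. By this measure the order of neighbours turned between the groups. Per kilobase Lpl had 69.2 and Lgals3 58.8 normalized counts in the Brap LKO livers, but 34.2 and 47.9 in the Brap F/F livers. Gpnmb had 4.51 and Ly6c2 3.62 in the Brap LKO livers, but 0.938 and 2.17 among the Brap F/F mice. The genes with the highest fold changes, Gpnmb and Trem2, were thus among the 3 lowest by level.

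Single livers weighed on the whole set. Brap F/F replicate 4 was the highest Brap F/F liver for 9 of the 10 genes, Lgals3 being the exception, and Brap F/F replicate 3 the lowest of the 8 livers for 6. A Brap LKO liver was the highest of the 8 for all 10 genes, replicate 4 for 4 of them and replicate 1 for 3. The animal numbers in the labels form a lower series (3 Brap LKO, 1 Brap F/F) and a higher series (1 Brap LKO, 3 Brap F/F), neither of which allows a test. The log2 difference between groups within the lower and higher series was 2.62 and 2.37 for Gpnmb, 1.20 and 2.64 for Trem2, 1.41 and 1.22 for Lpl, and 1.05 and 1.31 for Cd63. It was above 0 in both series for every gene of the 10 but Lgals3 (-0.09 in the lower series) and Fabp5 (-0.90 in the lower series).

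Some markers of other cell types also differed between the groups. Of all tested genes, 48.0% had log2 fold changes above 0 and 0.664% were called higher, and DESeq2 called 3.02% of all genes higher. Of 13 tested cholangiocyte genes, 12 had log2 fold changes above 0 (median 0.95) and Cftr and Sox4 passed the threshold. Cftr lost its call in 8 of 21 alternatives and Sox4 in 9 of 22 (adjusted p = 0.134 and 0.119 without Brap LKO replicate 1), and DESeq2 called 5 of the 13. The list's sum was 3480 to 5535 normalized counts in Brap LKO replicates 1 to 4 and 2762 to 3641 in the Brap F/F livers, with Cftr among the genes at 0 in at least 1 liver. Of 14 stellate cell and fibroblast genes, 12 were above 0 (median 0.44) and Pdgfrb passed (adjusted p = 0.0494), with sums of 9411 to 14140 and 6203 to 10733 normalized counts and no gene at 0. Pdgfrb lost its call in 11 of 22 alternatives, among them every fit without 1 liver other than Brap F/F replicate 4 (with adjusted p between 0.0510 and 0.149), and DESeq2 called 5 of the 14. T, NK and B cell genes had 13 of 14 above 0 (median 0.61) with 0 past the threshold, and sums of 404 to 622 and 267 to 641, with Klrb1c, Ncr1 and Gzma at 0 in at least 1 liver. Dendritic cell genes had 10 of 11 above 0 (median 0.28) with 0 past the threshold, and sums of 3361 to 4040 and 2833 to 3657, with Cd209a at 0 in at least 1 liver. Of 15 hepatocyte genes, 12 were below 0 (median -0.25) with 0 past the threshold, and sums of 2606612 to 3549963 and 3215917 to 4697141. After quantile normalization that median was 0, with 7 of 15 above 0, and with the same total per liver -0.09. The sinusoidal endothelium list (12 tested, median 0.17, sums of 10473 to 14888 and 8985 to 14080) and the neutrophil list (4 tested, median 0.26 and 0.06 to 0.53 with 1 liver left out, sums of 92.1 to 166 and 50.5 to 149, with Ly6g among 7 genes at 0 in at least 1 liver) had 0 genes past the threshold, as did the red blood cell list (6 tested, median -0.08 but 0.21 without Brap LKO replicate 4, sums of 3789 to 4328 and 4204 to 4662). Cd9, Cd63, Lgals3, Fabp5 and Lpl are not restricted to macrophages, and the part of these other cell types in their values was not tested.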

How the data were processed

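Liver RNA of the 8 mice was made into NuGEN Universal Plus mRNA libraries, and 50 bases were read from 1 end. The submitters' processing notes name FastQC, STAR 2.6.0c, mm10 and DESeq2. The counter, annotation release and strand setting are not given in the sources used here. The deposited values are a signal: the authors took each gene's read count and scaled it by the liver's DESeq2 size factor, for 24451 genes (187 without a symbol). Every value (100%, tolerance 0.001) was a whole multiple of 1 read, so whole reads were recovered, between 26280884 and 33313914 per liver. The authors' DESeq2 comparison (mean, log2 fold change and its error, p, adjusted p, fold change) was not used, and 0 per-liver columns were left out.

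Because the deposited values are scaled counts, the main test chosen was limma 3.58.1 (R 4.3.3) on a log scale, although whole reads could be recovered. With the variance prior following the mean, it was fitted to log2(normalized count + 1) of the 15352 genes with a mean of at least 5. Benjamini-Hochberg adjustment was over all of them, with a threshold of 0.05. edgeR 4.0.16 and DESeq2 1.42.0 on the recovered reads were alternatives. Other alternatives changed the pseudocount, minimum mean, normalization, weights, covariates or threshold, or left out 1 liver. Those for genes outside the 10 and for list medians were added after seeing the data. Exact permutation tests were two-sided over the 70 arrangements. The labels give 1 liver per sample, and p-values and intervals rest on the spread between livers. Scripts were checked on simulated data.

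Exon lengths and overlaps came from GENCODE annotation of mm10, and promoters from RefSeq. The 10 genes, the gene lists and the tests were chosen with earlier results of these data known. Several genes, such as Spp1, stand in more than 1 list. Values are given for all 10 genes, and by rule for genes of each list past the threshold or among its 3 most abundant, though not for every gene under it. Other named genes (Blnk, Ccr2, Ms4a7, Mmp12, Cd163, Angptl4, Csf1, Cx3cl1, Axl, Inpp5d, Plcg2 and the like) were chosen after their values were seen. Other steps used scipy 1.17.1, pandas 2.3.3 and numpy 2.4.6 in Python 3.11.15, with plots by matplotlib 3.10.9.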

Additional observations from a re-analysis of the deposited data

Results flagged for a closer look

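In 2 of 48 groups of 4 livers examined (the 10 genes and the other genes given by liver, in each group of mice), the highest liver lay far from the other 3 by Dixon's criterion, where chance alone gives about 2.4. Cx3cr1 had 20.6 normalized counts in Brap F/F replicate 4, where replicates 1 to 3 had 11.4 to 12.6. Ly6c1 had 7.08 normalized counts in Brap LKO replicate 3 and 3.12 to 3.64 in replicates 1, 2 and 4, a matter of few reads. None of the 10 macrophage genes stood apart in this way in either group.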

How the results depend on the processing

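Of the 10 genes, 1 was called higher, and between 0 and 2 were when 1 liver was left out (2 without Brap F/F replicate 4, 0 without any other). The number was 0 with a pseudocount of 0.5, with a minimum mean of 20 (which leaves Gpnmb untested), after quantile normalization and without the mean-variance trend. It was 2 with arrayWeights, with the animal series as a covariate and at an adjusted p-value under 0.1, and 3 with the same total per liver and with DESeq2. None (0) was called lower in any of these fits. The median log2 fold change of the 10 (0.56) stayed between 0.47 and 0.997 with 1 liver left out and between 0.44 and 0.78 otherwise. Over all genes, 102 were called higher and 16 lower. With 1 liver left out these numbers were 11 to 178 and 4 to 54. They were 459 higher with the same total, 455 higher and 170 lower with DESeq2, 185 and 39 with arrayWeights, 283 and 64 at an adjusted p-value under 0.1, 62 higher after quantile normalization, and 9 lower with a minimum mean of 20. The causes were not tested. Gpnmb was called in 10 of 21 alternatives, Lpl in 6 of 22, Cd63 in 2 of 22 and Trem2 in 0 of 22 (lowest adjusted p = 0.0560, DESeq2).

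The log2 fold change of Fabp5 turned from 0.50 to -0.11 and -0.04 without Brap LKO replicate 4 and Brap F/F replicate 3, and reached 1.20 without Brap F/F replicate 4. Relative to the pan-macrophage genes, differences near 0 changed sign. Cd9 (-0.0036) turned to 0.0094 against Adgre1 and Csf1r, 0.34 against the Kupffer cell genes and at most 0.10 with 1 liver left out (from -0.16). Lgals3 (-0.07) turned to 0.28 against the Kupffer cell genes and ranged from -0.22 to 0.078 with 1 liver left out. Tyrobp (-0.11) turned to 0.24 against the Kupffer cell genes. Fabp5 (0.09) ranged from -0.51 to 0.70 with 1 liver left out.

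The labels do not say that same-numbered livers are paired, and no pairing was assumed. Deviations from the group means correlated from -0.13 to 0.29 for same-numbered livers and from -0.29 to 0.20 for differently numbered ones. With 4 same-numbered pairs these values cannot settle whether the livers were paired. With the replicate block, 1 of the 10 genes was called, Lpl (adjusted p = 0.0237) in place of Gpnmb (adjusted p = 0.0659). Under that block Cxcl16 (adjusted p = 0.0537) and Cftr (adjusted p = 0.0771) were not called. Gpnmb, Trem2 and Ly6c2 had at most 54 reads in any liver.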
